A study of Chlorocebus sabaeus with 10 samples.

Results

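Transcripts of the pentose phosphate pathway were compared between the livers of vervet monkeys on a high fructose (HFr) diet and on chow. The pathway was represented by 7 listed genes, PGLS, PGD, H6PD, RPIA, RPE, TKT and TALDO1, and a member was any row of the deposited count table that carried one of these gene symbols. Of the 7 symbols, 6 had a row among the 28078 transcripts of the table, each with 1 annotated transcript, and RPE was the one without. The filter on low counts was passed by 4 of the 6 (PGLS, PGD, TKT and TALDO1) and not by RPIA and H6PD, so these were described by their counts. All 10 animals were female Chlorocebus sabaeus that had eaten chow before the study, and each gave 1 liver biopsy and 1 RNA-Seq library. The HFr group (n = 5) ate the fructose diet for 6 weeks and the control group (n = 5) stayed on chow for the same time. Animals were allocated so as to balance age and body weight. The study still listed a higher mean age for the HFr group, a difference that did not pass its own threshold. The composition of the diets was not given in the sources used here. The libraries were made from polyadenylated RNA of whole liver, in which fewer cells of a type and less RNA per cell cannot be told apart.

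The pentose phosphate pathway is a branch of glucose metabolism in the cytosol. Its oxidative arm removes a carbon from phosphorylated glucose and stores the released electrons as NADPH, the reductant that liver cells spend on fatty acid and cholesterol synthesis, on glutathione reduction and on cytochrome P450 reactions. Its non-oxidative arm shuffles carbon among sugar phosphates, which supplies ribose for nucleotides and returns surplus pentose to glycolysis as fructose and glyceraldehyde phosphates. Fructose breakdown yields triose phosphates that can enter the same pool.

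Estimated counts per library totalled between 2977282 and 4992505, and transcripts of the mitochondrial genome took between 34.8% and 73.6% of them. This mitochondrial share averaged 55.5% (SD 11.8, n = 5) for HFr and 55.4% (SD 16.5, n = 5) for chow libraries, with p = 0.992 in a two-sided exact permutation test. The counts of nuclear transcripts were fewest in chow replicate 4 (864571) and most in chow replicate 3 (2657103). Values called normalized counts are in CPM, the estimated counts per 1000000 counts of a library whose size was multiplied by its TMM factor, an adjustment for composition that takes a trimmed mean of log ratios between libraries. They are not divided by transcript length, so a gene was compared between animals and not with another gene. The 10 hepatocyte markers examined, among them ALB and APOA1, had counts in every library. Their summed level was 52000 to 77700 normalized counts in HFr livers and 41800 to 84600 in chow livers. ALB was the largest part of it, with means of 30000 and 33900. The summed level of 10 macrophage and Kupffer cell markers ranged from 328 to 518 on the HFr diet and from 332 to 526 on chow (two-sided exact permutation test, p = 0.841). CD14 was the largest part of this sum, with a mean of 277 on each diet. Markers with fewer counts varied more between animals than the sum did. MARCO, for example, ran from 8.075 to 57.65 on the HFr diet and from 9.855 to 48.01 on chow. Marker sums of neutrophils, lymphocytes, erythroid cells, endothelium, stellate cells and cholangiocytes had exact permutation p-values between 0.349 and 0.873. Single markers were singled out after their values were seen. KDR of endothelium had 32.8 normalized counts in HFr and 22.1 in chow livers (unadjusted p = 0.0109 from edgeR). ACTA2 of stellate and smooth muscle cells had 5.21 and 15.9 (unadjusted p = 0.00646 from edgeR), and both had adjusted p = 0.9996. GZMA of lymphocytes did not pass the filter, with 1 to 6 counts per library. Its 1.19 to 1.88 in HFr livers lay above its 0.183 to 1.01 in chow livers. The share of such separations among transcripts that did not pass the filter was not computed. FCN3 of endothelium, which also did not pass, and TF of hepatocytes were higher on the HFr diet (exact permutation test, unadjusted p = 0.0238 and 0.0476). Of the 10 hepatocyte markers, 7 had a fitted log2 fold change above 0 and 3 below 0. The part of these single markers in the members' values was not tested.

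None of the 4 tested members differed between the diets at an unadjusted p below 0.05 (quasi-likelihood test of edgeR), a threshold that 4.29% of the 7948 tested transcripts passed. After Benjamini-Hochberg adjustment over all tested transcripts, 0 of the 4 were called by edgeR and 0 by DESeq2, and edgeR called 0% of the tested transcripts. The log2 fold changes of the 4 members had a median of 0.17, with 3 members higher on the HFr diet and TALDO1 lower, beside a median of -0.00075 over all tested transcripts. Without regard to sign, the median log2 difference was 0.17 for the 4 members and 0.17 over all tested transcripts. No member separated the diets completely, as 0.541% of the tested transcripts did.

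**Figure D1:**
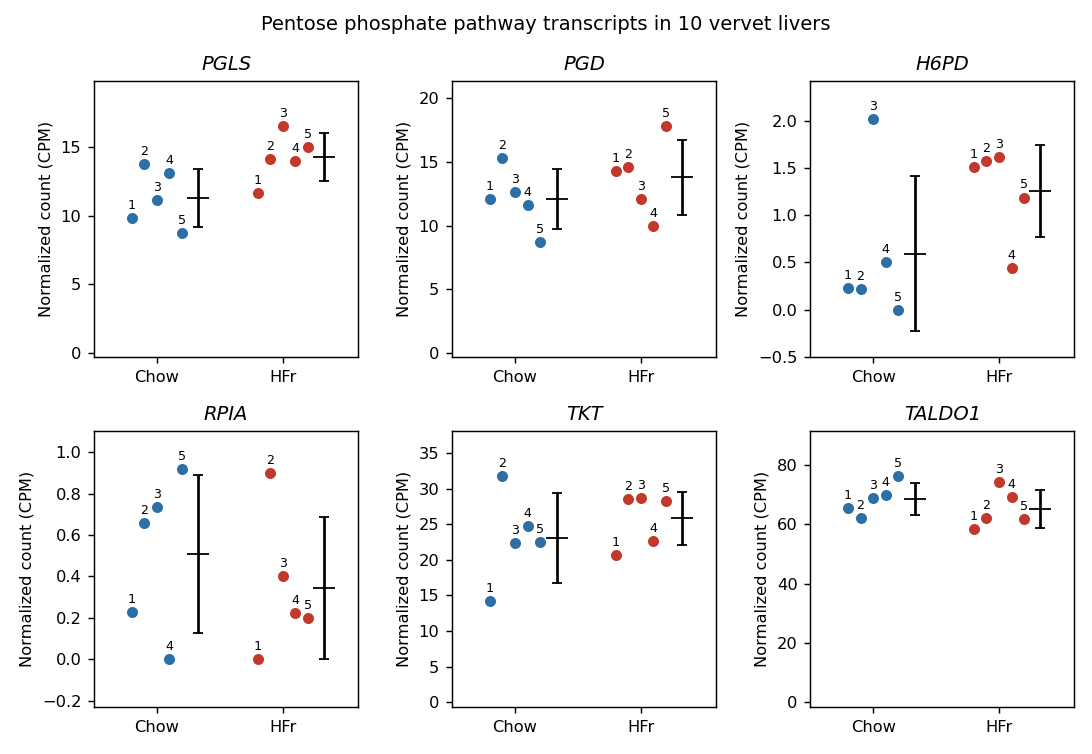
Normalized counts (CPM, linear axes) of the 6 members with a row, 1 panel per gene, in 5 chow and 5 HFr animals. Points are animals labelled by replicate number, and the bar beside each group is its mean with the SD. PGLS lies between 8.73 and 13.8 on chow and between 11.7 and 16.5 on the HFr diet, while the TALDO1 points of both diets stay between 58.4 and 76.3. The axes of H6PD and RPIA extend below 0, where the only SD bar to reach is that of H6PD on chow.

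PGLS (ENSCSAG00000005564) encodes the lactonase that opens the ring of phosphogluconolactone in the oxidative arm, and lies on chromosome 6 of ChlSab1.1 from 15997806 to 16006806 on the plus strand. The listed end of each gene is the first base after it. PGLS had the widest difference between the diets among the tested members. In HFr replicates 1 to 5 it stood at 11.68, 14.13, 16.54, 14.00 and 15.04 normalized counts, and in chow replicates 1 to 5 at 9.83, 13.8, 11.2, 13.1 and 8.73. All 5 HFr animals were above the chow mean and 4 of them were above every chow animal, with HFr replicate 1 inside the chow range. The means were 14.3 ± 1.77 (SD, n = 5) and 11.3 ± 2.14 (SD, n = 5), with a log2 fold change of 0.33 and an SE of 0.19. The 95% interval of this fold change reached from -0.07 to 0.73 on the log2 scale, which is a ratio from 0.951 to 1.66. The unadjusted p from edgeR was 0.101 and the adjusted p was 0.9996. An exact two-sided permutation test of the normalized counts gave an unadjusted p of 0.0476 for PGLS, the smallest of the 6 such tests on members. The same test was run on the related list genes and markers. Some of these had a smaller unadjusted p, among them NADK2 (0.0159) and GZMA (0.00794). The study's equal-variance test, applied to the authors' normalized values, gave an unadjusted p of 0.0333. Omitting any single animal left the log2 fold change of PGLS between 0.26 and 0.42.

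PGD (ENSCSAG00000000778) encodes phosphogluconate dehydrogenase, the later of the NADPH-producing steps of the oxidative arm, and lies on chromosome 20 from 121359381 to 121377033 on the minus strand. Its normalized counts in HFr replicates 1 to 5 were 14.32, 14.58, 12.10, 9.997 and 17.81. In chow replicates 1 to 5 they were 12.1, 15.3, 12.6, 11.6 and 8.73. The ranges overlapped over most of their width, and the extremes were HFr replicate 5 at the top and chow replicate 5 at the bottom. The means were 13.8 ± 2.93 and 12.1 ± 2.36 (SD, n = 5 each), which gave 0.17 as log2 fold change (SE 0.21, 95% interval -0.27 to 0.62). PGD had an unadjusted p of 0.419 from edgeR and an adjusted p of 0.9996. Without HFr replicate 5 its log2 fold change was 0.06, and without chow replicate 5 it was 0.08.

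H6PD (ENSCSAG00000000766) encodes hexose phosphate dehydrogenase, which runs the first oxidative steps inside the endoplasmic reticulum, where its NADPH serves the cortisol-regenerating enzyme encoded by HSD11B1. It lies on the same chromosome as PGD, from 122503687 to 122526075 and 1126654 bases beyond it, also on the minus strand. Its counts were few, at 4, 7, 4, 2 and 6 in HFr replicates 1 to 5 and 1, 1, 11, 1 and 0 in chow replicates 1 to 5. The HFr livers held 23 of them together and the chow livers 14, of which 11 came from chow replicate 3. In normalized counts the HFr animals stood between 0.444 and 1.61, chow replicate 3 at 2.02 and the other chow animals between 0 and 0.505. The 0 of chow replicate 5 allows a level of up to 1.38 normalized counts, the value of 3 counts in that library, a limit that covers counting error only. When all 16066 transcripts with a count above 0 after rounding were tested, the log2 fold change of H6PD was 0.80 (SE 0.70, 95% interval -0.64 to 2.24, edgeR unadjusted p = 0.264, adjusted p = 0.842). Without chow replicate 3 it was 2.26, with an unadjusted p of 0.00988 and an adjusted p of 0.704 from edgeR, so the size of the difference rested on that animal. Over the other alternatives the log2 fold change of H6PD was between 0.55 and 1.58. The unadjusted p was under 0.05 in 3 of the 23 alternatives for H6PD, and the adjusted p from edgeR, limma or DESeq2 ranged from 0.704 to 1.

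HSD11B1 itself had 240 normalized counts on the HFr diet and 286 on chow (log2 fold change -0.25, unadjusted p = 0.355 from edgeR).

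RPIA (ENSCSAG00000016449) encodes the isomerase that turns ribulose phosphate into ribose phosphate, and lies on chromosome 14 from 18016740 to 18071014 on the minus strand. It had 0, 4, 1, 1 and 1 counts in HFr replicates 1 to 5 and 1, 3, 4, 0 and 2 in chow replicates 1 to 5. The 17 counts in all were split into 7 on the HFr diet and 10 on chow, and no difference was detectable at this depth. Its normalized counts lay between 0 and 0.897 in the HFr livers and between 0 and 0.919 in the chow livers, and the libraries at 0 (HFr replicate 1 and chow replicate 4) allow up to 1.13 and 1.52 at 3 counts. Without a filter on low counts its log2 fold change was -0.51 (SE 0.81, 95% interval -2.20 to 1.17, unadjusted p = 0.534 from edgeR). It was -1.23 without HFr replicate 2, -0.29 without HFr replicate 1 and -0.16 with limma on log2(CPM + 1), with no change of direction in 23 alternatives. The epimerase that works beside RPIA on ribulose phosphate is encoded by RPE, which was not analysed here because no row carried its symbol.

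TKT (ENSCSAG00000013045) encodes transketolase, the thiamine-dependent enzyme that moves carbon units between pentose, hexose and triose phosphates, and lies on chromosome 22 from 14620287 to 14650656 on the minus strand. HFr replicates 1 to 5 held 20.7, 28.5, 28.6, 22.7 and 28.3 normalized counts of TKT. Chow replicates 1 to 5 held 14.2, 31.8, 22.4, 24.8 and 22.5. Both the lowest and the highest animal were on chow, replicates 1 and 2, and the HFr animals lay between them. The means were 25.8 ± 3.78 and 23.1 ± 6.29 (SD, n = 5 each), which gave 0.16 as log2 fold change (SE 0.21, 95% interval -0.28 to 0.60, edgeR unadjusted p = 0.452, adjusted p = 0.9996). For TKT, omitting chow replicate 1 gave 0.02 as log2 fold change, and omitting chow replicate 2 gave 0.31.

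TALDO1 (ENSCSAG00000010686) encodes transaldolase, the partner of transketolase in the non-oxidative arm, and lies near the start of chromosome 1 from 553458 to 573547 on the plus strand. It was the most deeply counted member, with 138 to 376 counts per library. Its normalized counts were 58.4, 62.1, 74.2, 69.3 and 61.7 in HFr replicates 1 to 5 and 65.3, 62.2, 69.0, 69.7 and 76.3 in chow replicates 1 to 5. The highest animal was 1.31 times the lowest. The ranges overlapped, but HFr replicates 1, 2 and 5 lay below every chow animal, replicates 2 and 5 only just. Chow replicate 5 lay above every HFr animal. The means were 65.2 ± 6.44 and 68.5 ± 5.29 (SD, n = 5 each), which gave -0.07 as log2 fold change (SE 0.15, edgeR unadjusted p = 0.637, adjusted p = 0.9996). The 95% interval of the ratio of HFr to chow ran from 0.764 to 1.19, the narrowest of the members.

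Summed over the 6 members, the normalized counts averaged 121 (SD 9.88) in the 5 HFr livers and 116 (SD 8.38) in the 5 chow livers. Relative to nuclear transcripts alone, the members made up between 2.41 and 3.15 of every 10000 counts in the HFr animals and between 2.42 and 2.86 in the chow animals. TALDO1 supplied 49.7% to 59.4% of the members' counts on the HFr diet and 50.2% to 65.1% on chow. The number of TKT counts for each TALDO1 count, a quantity that does not depend on the scaling of a library, lay between 0.327 and 0.458 in HFr livers, and chow replicates 1 and 2 marked the extremes of the chow livers at 0.217 and 0.511.

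The members differed in how much they varied between animals on the same diet. The within-diet coefficient of variation (CV, the SD within a diet as a percent of the mean) was 8.82% for TALDO1, 15.4% for PGLS, 20.6% for PGD and 21.2% for TKT, beside a median of 27.2% over all tested transcripts. Of the 7948 tested transcripts, 38 (0.478%) had a lower CV than TALDO1. Among the 354 transcripts whose mean lay within 1.2-fold of that of TALDO1, the median CV was 21.9% and 1.98% had a lower one. For PGLS the corresponding share was 6.17% of 1021 transcripts, for PGD 26.9% of 1024 and for TKT 46.3% of 875. The CV expected from counting reads alone was 6.60% for TALDO1, 15.3% for PGLS, 15.4% for PGD and 11.1% for TKT. The spread of PGLS between animals was thus close to that of counting, while that of TKT was wider than counting gives. RPIA and H6PD had CVs of 84.8% and 72.3%, against 82.8% and 67.9% from counting.

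**Figure D2:**
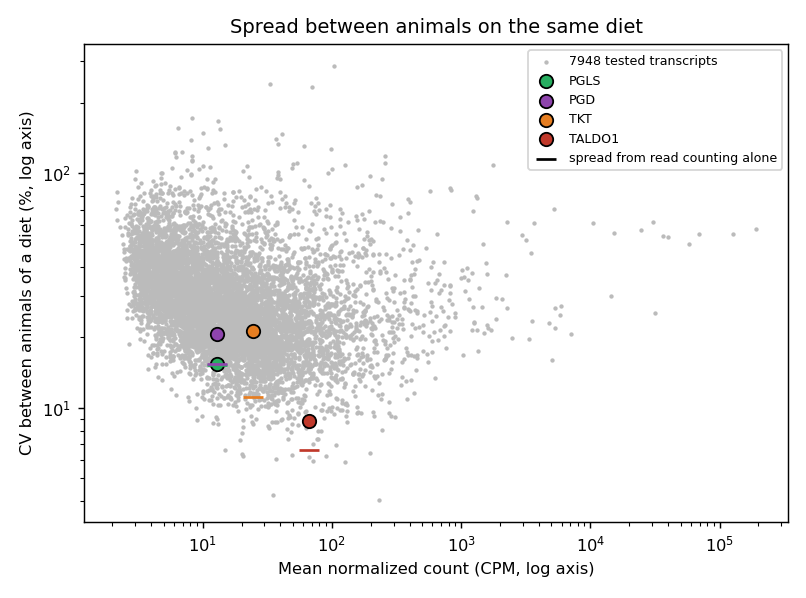
Within-diet coefficient of variation (percent, log axis) against mean normalized count (CPM, log axis) for the 7948 tested transcripts in grey and the 4 tested members in color. Horizontal marks give the variation expected from read counting for each member. TALDO1, at 8.82%, lies at the lower edge of the transcripts of its level, and TKT, at 21.2%, lies within them.

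Across the 10 animals, the levels of the 4 tested members were compared pairwise on the log2 scale, which gave 6 correlations. PGD and TALDO1 varied in opposite directions (Pearson r = -0.812, p = 0.0045 from 100000 permutations, 0.0270 adjusted over the 6 pairs). Spearman's rho was -0.855 (permutation p = 0.00317, adjusted 0.0190), and without HFr replicate 5 and chow replicate 5, the animals farthest from the median of PGD, r was -0.726. Of all pairs of tested transcripts, 99.6% had a higher r than this pair. The relation was present among deviations from the diet means (r = -0.791, permutation p = 0.00651, adjusted 0.0391). The share of PGD in the summed counts of PGD and TALDO1, which needs no scaling but moves with either gene, ran from 10.3% in chow replicate 5 (95% exact Clopper-Pearson interval 6.30% to 15.6%) to 22.4% in HFr replicate 5 (18.4% to 26.8%). These are the lowest and highest of the 10 shares, and the intervals cover counting error only. The within-diet CV was 20.6% for PGD and 8.82% for TALDO1, against 15.4% and 6.60% from counting. The part of counting error in this correlation was not tested.

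The mitochondrial share of the library was set against each tested member, and 1 of the 8 adjusted p-values, that of rho for PGD, was under 0.05. Its correlation with the log2 normalized count was -0.698 for PGD (permutation p = 0.0249, adjusted over 4 members 0.0997, rho = -0.818 with permutation p = 0.00569 and adjusted 0.0228) and 0.587 for TALDO1 (permutation p = 0.0766, adjusted 0.153, rho = 0.673 with permutation p = 0.0393 and adjusted 0.0786). Without HFr replicate 2 and chow replicate 2 these r were -0.620 and 0.462. It was -0.199 for PGLS and -0.337 for TKT, with permutation p of 0.578 and 0.359 (adjusted 0.578 and 0.478) and rho of -0.164 and -0.236 (permutation p = 0.657 and 0.513, both adjusted to 0.657). With those same animals left out, r was -0.03 for PGLS and 0.05 for TKT. After a linear fit on the mitochondrial share, the residuals of PGD and TALDO1 had r = -0.694 (permutation p = 0.0213, adjusted 0.0646). Scaled to nuclear counts only, the pair had r = -0.487 (permutation p = 0.152, adjusted 0.314), and scaled to the whole library without that factor the direction turned, with r = 0.838 (permutation p = 0.00400, adjusted 0.00600). On that scale each tested member fell along the mitochondrial share, with r between -0.934 and -0.860.

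**Figure D3:**
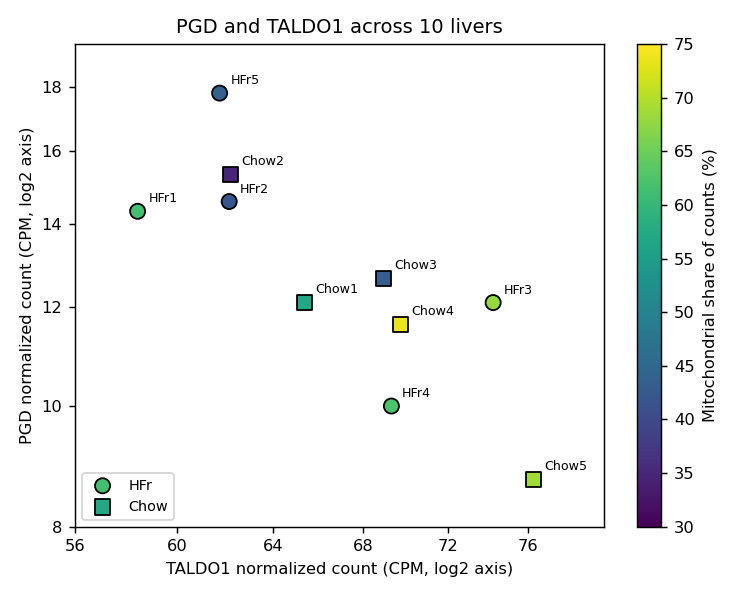
PGD against TALDO1 normalized counts (CPM, log2 axes) in the 10 livers, with circles for HFr and squares for chow animals and the color giving the mitochondrial share of the library in percent. Chow replicate 5 has the highest TALDO1 (76.3) and the lowest PGD (8.73), and HFr replicate 5 has the highest PGD (17.8). Libraries of both diets lie along the falling pattern.

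PGLS and TKT varied together (r = 0.709, permutation p = 0.0191, adjusted 0.0573, rho = 0.758 with permutation p = 0.0141 and adjusted 0.0424). Without chow replicates 1 and 5 their r was 0.708, and 1.80% of all pairs of tested transcripts had an r at least as high as the full value. The oxidative pair PGLS and PGD had r = 0.507 (permutation p = 0.136, adjusted 0.271, rho = 0.382 with permutation p = 0.280 and adjusted 0.549), which was 0.07 without chow replicates 1 and 5. PGD and TKT had r = 0.387 (permutation p = 0.267, adjusted 0.401, rho = 0.321 with permutation p = 0.366 and adjusted 0.549) and 0.354 without HFr replicate 5 and chow replicate 5. The non-oxidative pair TKT and TALDO1 had r = -0.04 (permutation p = 0.916, adjusted 0.916, rho = 0.05 with permutation p = 0.891 and adjusted 0.891) and -0.003 without chow replicates 1 and 2. PGLS and TALDO1 had r = -0.197 (permutation p = 0.581, adjusted 0.697, rho = -0.188 with permutation p = 0.605 and adjusted 0.726), which was 0.310 without chow replicates 1 and 5. The median r was 0.173 over the 6 pairs and -0.001 over all pairs of tested transcripts. Within each of these 10 points, the members come from 1 library and share its scaling factor and its mitochondrial share. The within-diet CV of PGLS, 15.4%, was close to the 15.3% from counting alone. How much of its correlation with TKT reflects variation between livers was not tested.

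The transcripts whose pattern over the 10 animals was most like that of each tested member were taken as a description. For PGLS they were UBAC2 (r = 0.906) and HYAL2 (r = 0.882). For PGD they were SCAMP3 (r = 0.951) and TRMU (r = 0.901), for TKT ECI1 (r = 0.907) and CLU (r = 0.864), and for TALDO1 FIP1L1 (r = 0.956) and BIN2 (r = 0.912). Each was picked for the highest r among all tested transcripts with a gene symbol, so these r are maxima of many. None of these 8 had an unadjusted p under 0.05 between the diets from edgeR, beside 4.29% of all tested transcripts. Their p-values ranged from 0.0947 for HYAL2 to 0.785 for TRMU. They were chosen for their likeness to members without such a p, so this count is not a separate result.

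Around the pathway, 75 further genes in 5 lists were examined, of which 70 had a row and 53 passed the filter on low counts. An unadjusted p under 0.05 from edgeR was reached by 2 of the 53 (3.77%, beside 4.29% of all tested transcripts), both lower on the HFr diet, and 0 passed adjustment with edgeR.

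**Figure D4:**
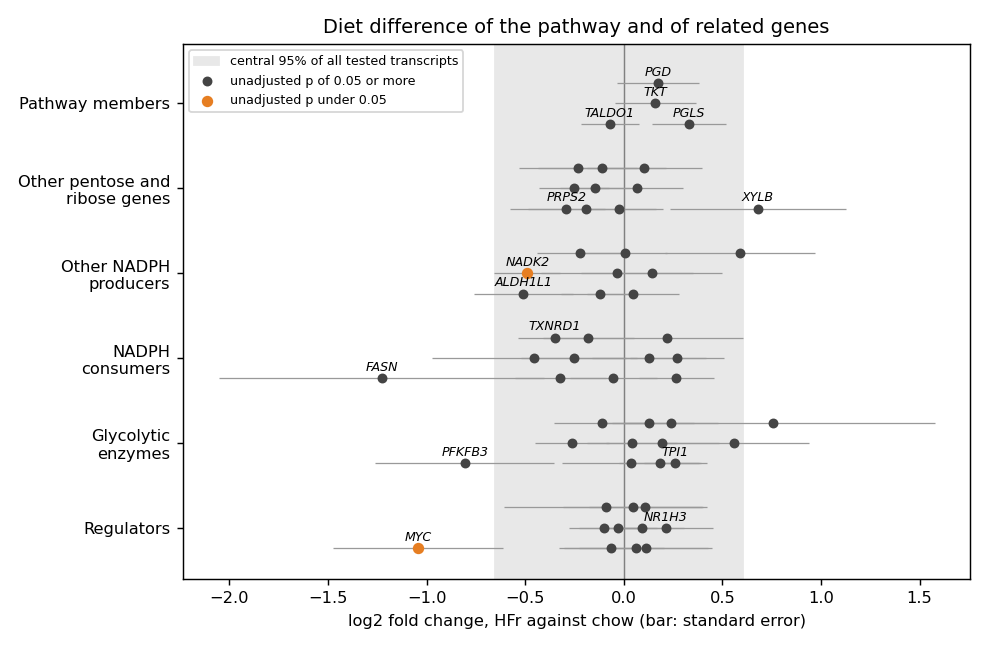
Log2 fold changes of HFr against chow (log2 scale, horizontal axis) for the 4 tested members and the 53 tested genes of 5 related lists, with SEs as bars and the central 95% of all tested transcripts (-0.656 to 0.603) shaded. The 4 members lie inside the shaded range, between -0.07 and 0.33, and NADK2 and MYC carry the color for an unadjusted p under 0.05.

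Of 15 other genes of pentose and ribose metabolism, 10 were tested. The fitted log2 fold change was above 0 for 3 and below 0 for 7, with a median of -0.13, and none had an unadjusted p under 0.05 from edgeR. The smallest p-values belonged to XYLB, the xylulokinase that feeds xylulose into the pathway, at 3.83 ± 1.11 normalized counts on the HFr diet and 2.29 ± 1.48 on chow (SD, n = 5 each, unadjusted p = 0.150 from edgeR), and to PRPS2, which makes the activated ribose used for nucleotides, at 11.4 ± 2.51 and 14.1 ± 1.76 (SD, n = 5 each, unadjusted p = 0.155 from edgeR, and 0.0410 without HFr replicate 2).

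Of 13 other genes for enzymes that produce NADPH or its precursor, 9 were tested, with 4 higher and 5 lower on the HFr diet and a median log2 fold change of -0.03. NADK2, the mitochondrial NAD kinase, had 123, 102, 132, 132 and 141 normalized counts in HFr replicates 1 to 5. In chow replicates 1 to 5 it had 140, 182, 193, 176 and 194. The HFr animals lay below the chow animals except that HFr replicate 5 was just above chow replicate 1, and NADK2 had -0.49 as its log2 fold change (SE 0.17, edgeR unadjusted p = 0.0108, adjusted p = 0.9996). With library size alone as the scaling, the unadjusted p of NADK2 from edgeR was 0.162. ALDH1L1, a folate enzyme that releases NADPH in the cytosol, had 348 ± 106 normalized counts on the HFr diet and 496 ± 145 on chow (SD, n = 5 each, unadjusted p = 0.0633 from edgeR). The unadjusted p of ALDH1L1 was under 0.05 in 6 of 26 alternatives, which were DESeq2 (0.0490), limma voom with sample weights (0.0147), the replicate block in edgeR (0.0356) and edgeR without HFr replicate 4 (0.0109), without chow replicate 1 (0.0261) and without chow replicate 3 (0.0486). IDH1, the cytosolic isocitrate dehydrogenase, stood at 412 and 410 normalized counts, and ME1, the cytosolic malic enzyme, at 6.21 and 5.65.

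Of 16 NADPH-consuming enzymes, 11 were tested, with 4 higher and 7 lower on the HFr diet, a median log2 fold change of -0.18 and none with an unadjusted p under 0.05 from edgeR. TXNRD1, the cytosolic thioredoxin reductase, had 14.7 ± 2.20 normalized counts on the HFr diet and 18.6 ± 3.51 on chow (SD, n = 5 each, unadjusted p = 0.0800 from edgeR, and 0.0238 without chow replicate 5). FASN, which spends NADPH on fatty acid chains, had 58.7 ± 57.8 and 138 ± 167 (SD, n = 5 each, unadjusted p = 0.159 from edgeR), with chow replicate 2 at 421 while the remaining chow livers held 11.9 to 122. Without that animal the log2 fold change of FASN was -0.18 in place of -1.23, and the unadjusted p from edgeR was 0.0345 without HFr replicate 4 and 0.0231 with library size only.

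Of 20 glycolytic genes whose products handle intermediates shared with the pathway, 12 were tested. The fitted log2 fold change was above 0 for 9 and below 0 for 3, with a median of 0.16, and none had an unadjusted p under 0.05 from edgeR. PFKFB3, which sets the level of a regulator of phosphofructokinase, had 7.92 ± 3.61 and 13.4 ± 10.2 normalized counts (SD, n = 5 each, unadjusted p = 0.0961 from edgeR). Chow replicate 3 stood at 29.9, and without it the log2 fold change of PFKFB3 was -0.26 (unadjusted p = 0.526 from edgeR) in place of -0.81. The unadjusted p of PFKFB3 from edgeR was 0.0364 without HFr replicate 5, 0.0482 without chow replicate 2 and 0.0315 without chow replicate 4. TPI1, the triose phosphate isomerase, had 164 ± 21.3 on the HFr diet and 137 ± 10.7 on chow (SD, n = 5 each, unadjusted p = 0.127 from edgeR). The study's equal-variance test gave TPI1 an unadjusted p of 0.0160.

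All 11 listed transcriptional regulators were tested, with fitted log2 fold changes above 0 for 6 and below 0 for 5 and a median of 0.05. MYC had 17.3, 14.8, 11.3, 2.22 and 6.33 normalized counts in HFr replicates 1 to 5 and 18.7, 15.6, 31.2, 9.60 and 28.5 in chow replicates 1 to 5. Each of the 5 HFr values lay under the mean of the chow animals, although the ranges overlapped (log2 fold change -1.04, SE 0.43, edgeR unadjusted p = 0.0295, adjusted p = 0.9996). The unadjusted p of MYC from edgeR was 0.0730 without HFr replicate 5, 0.0851 without chow replicate 3 and 0.0619 without chow replicate 5. The study's equal-variance test gave MYC an unadjusted p of 0.0761. NR1H3, the liver X receptor alpha gene, had the next smallest p (0.392 from edgeR), at 12.3 ± 2.80 and 10.6 ± 2.86 normalized counts (SD, n = 5 each). MLXIPL, which encodes the carbohydrate-responsive factor ChREBP, stood at 105 and 101 normalized counts, and NFE2L2, the gene of the oxidant-responsive factor NRF2, at 21.7 and 22.3.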

How the data were processed

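Liver biopsies were flash frozen, and stranded libraries of polyadenylated RNA were read as paired ends. The deposited estimated counts were made by the authors with CASAVA 1.8, FastQC and STAR 2.5.3a (submitters' processing notes), ChlSab1.1, the Ensembl release 93 gene model and an expectation-maximization step in Partek Flow that takes transcript length into account. In the second deposited table the authors had scaled these counts per sample by TMM, which gave a signal that was a constant multiple of the estimated counts within a sample. It was used only for the study's equal-variance test. Of the estimated counts, 97.69% were whole numbers, and all were rounded. Totals per library were 2977282 to 4992505, and 3 counts corresponded to 0.550 to 1.52 normalized counts. Libraries were compared in pairs within each diet, and none of these pairs were duplicates. Pairs across the diets were not compared in this way.

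Transcripts were tested in R 4.3.3 with the quasi-likelihood test of edgeR 4.0.16 on the diet alone, after TMM and filterByExpr (minimum count 10, minimum total 15), with Benjamini-Hochberg adjustment over 7948 transcripts. Single values were compared by exact permutation over the 252 assignments of 5 of 10 animals (smallest possible p 0.00794), and correlations used log2(CPM + 1) and 100000 permutations. The p-values refer to separate animals of 1 study. Correlations were planned over all 7 members but were computed for the 4 that passed the filter. Alternatives were DESeq2 1.42.0, limma 3.58.1, other scalings, filters and pseudocounts, a mitochondrial covariate, a replicate block and the omission of each animal. The RLE scaling and the mitochondrial residuals of the member correlations were added after seeing the data.

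The members and lists were chosen with earlier results of these data known. The text names the members, each list gene with an unadjusted p under 0.05, the 2 of each list with the smallest p, and the 2 transcripts most like each tested member. HSD11B1, IDH1, ME1, MLXIPL and NFE2L2 were named beside them for their roles, after their values were seen. Values of 1 gene, counted in the totals of its list, are not reported here. The code was tested on simulated data.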

Additional observations from a re-analysis of the deposited data

Results flagged for a closer look

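In groups of 5 animals, a value was singled out when its gap to the nearest other animal exceeded 0.71 of the range of its group (Dixon's 95% critical value). This was met in 4 of the 32 groups examined, where chance gives about 1 in 20 and 6.25% of the groups over all tested transcripts met it. The genes examined were the members and the named list genes, the latter chosen by their p-values. H6PD stood at 2.02 normalized counts in chow replicate 3, where the other chow animals lay between 0 and 0.505. FASN stood at 421 in chow replicate 2, with the other chow animals between 11.9 and 122. ALDH1L1 stood at 528 in HFr replicate 4, with the other HFr animals between 267 and 339, and XYLB at 5.78 in the same animal, with the others between 3.01 and 3.59. That library had a mitochondrial share of 62.2%. None of PGLS, PGD, TKT, TALDO1 and RPIA had such a value.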

How the results depend on the processing

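Under 26 alternatives the 4 tested members kept the direction of their log2 fold changes, 0 of them passed adjustment, and their median log2 fold change lay between 0.09 and 0.29. Of these 4, an unadjusted p under 0.05 was reached by 1, PGLS, in the study's equal-variance test and by 0 in the other alternatives. Fitted without the filter on low counts, H6PD reached it in 3 of 23 alternatives and RPIA in 0. Over all transcripts the number with an unadjusted p under 0.05 was 341, against 123 with library size only, 756 without a filter, where more transcripts were tested, and 260 to 408 with 1 animal left out. With the replicate number as a block it was 271, members with an unadjusted p under 0.05 numbered 0, and the median log2 fold change of the members was 0.18. Libraries of the same number had correlations of deviations between -0.287 and 0.099, and 1 of 10 libraries correlated best with its own number. These values gave no sign that the numbers pair the animals. They cannot exclude a pairing that leaves no trace in such correlations.

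The correlations between members depended on the scaling. With library size only they were 0.905 for PGLS and PGD, 0.915 for PGLS and TKT, 0.804 for PGLS and TALDO1, 0.853 for PGD and TKT, 0.838 for PGD and TALDO1 and 0.797 for TKT and TALDO1, and those with the mitochondrial share were -0.860 for PGLS, -0.934 for PGD, -0.905 for TKT and -0.906 for TALDO1. With nuclear counts only, PGD and TALDO1 had -0.487 and PGLS and TALDO1 0.0037. As deviations from the diet means, PGLS and TALDO1 had 0.0020 and TKT and TALDO1 0.058. As residuals on the mitochondrial share, PGD and TALDO1 had -0.694 and TKT and TALDO1 0.206. With 1 animal left out, PGLS and PGD had 0.180 to 0.646, PGLS and TKT 0.660 to 0.851 (adjusted permutation p under 0.05 without chow replicate 5), PGLS and TALDO1 -0.522 to 0.244, PGD and TKT 0.291 to 0.534, PGD and TALDO1 -0.867 to -0.720, and TKT and TALDO1 -0.190 to 0.0923. The adjusted permutation p of PGD and TALDO1 was 0.0556 without HFr replicate 2 and 0.0577, 0.0503 and 0.0858 without chow replicates 2, 4 and 5. With the mitochondrial share, the same omissions gave -0.430 to 0.031 for PGLS, -0.756 to -0.658 for PGD, -0.499 to -0.134 for TKT and 0.508 to 0.803 for TALDO1. The causes were not tested. Depth limits RPIA and H6PD, with at most 4 and 11 counts in a library.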
